A study of Mus musculus with 15 samples.

Results

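Mitochondrial ribosomal proteins were followed across 5 groups of sorted mouse fat cells. They were taken as every row of the deposited expression table whose mouse gene symbol is Mrpl or Mrps and a number, with an A or B suffix allowed. The rule found 76 genes, 48 with a large subunit symbol (Mrpl) and 28 with a small subunit symbol (Mrps), among 25206 probe sets of which 23740 had a symbol. Expression was measured on 1-colour Affymetrix arrays, from 2 ng of total RNA each, as log2 values. All cells came from UCP1/Tomato mice aged 8 to 10 weeks and were sorted as adipocytes by a gate labelled UCP1(GFP).

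The BAT group holds brown adipocytes that passed the UCP1 gate, taken from brown adipose tissue without treatment, with 3 arrays. CL holds UCP1-positive adipocytes from inguinal fat after CL316243, a beta-adrenergic receptor agonist, with 3 arrays. RS holds UCP1-positive inguinal adipocytes after roscovitine, an inhibitor of cyclin-dependent kinases, with 2 arrays. RG holds UCP1-positive inguinal adipocytes after rosiglitazone, an agonist of the nuclear receptor PPARG, with 3 arrays. The WAT group holds white adipocytes outside the UCP1 gate, also inguinal and untreated, with 4 arrays. No group holds untreated UCP1-positive inguinal cells, so against WAT the drug and the gate cannot be told apart. The labels give no dose, treatment time, sex or batch, and do not say whether arrays came from separate animals, so p-values measure only the spread between these arrays, which may be technical.

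Mitochondria carry their own ribosomes, whose RNA is made from mitochondrial DNA and whose proteins are all encoded in the nucleus, made in the cytosol and imported. The mitoribosome translates the few respiratory chain and ATP synthase subunits that mitochondrial DNA encodes, and these must be matched by a larger set of nuclear-encoded partners. Brown and beige adipocytes burn fuel through a respiratory chain uncoupled by UCP1, and are rich in mitochondria. Many members are relatives of bacterial ribosomal proteins, while others exist only in mitochondria. Some symbols mislead: Mrps30 and Mrps18a sit in the large subunit, and the protein of Mrps36 is now assigned to the 2-oxoglutarate dehydrogenase complex. Mrpl27 and Mrps18c were not analysed here.

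Arrays of the same group correlated between 0.945 and 0.988 over all probe sets, and no 2 arrays were identical. The adipocyte label was checked on 10 mature adipocyte markers, whose mean level per array was 9.83 to 9.86 in BAT, 9.90 to 10.3 in CL, 10.2 to 10.3 in RS, 10.2 to 10.5 in RG and 8.32 to 9.85 in WAT. WAT replicate 4 stood apart, with the 8.32 of that range, the highest macrophage mean (8.04) and the highest stromal mean (9.21) of all arrays. RS replicate 3 had an endothelial marker mean of 4.23, against 6.35 in RS replicate 4. Macrophage markers were lower in every group than in WAT: 14 of 14 measured fell in BAT, CL, RS and RG, with array means of 4.61 to 4.96 in BAT, 4.57 to 5.38 in CL, 4.28 to 4.87 in RS, 4.65 to 5.62 in RG and 6.99 to 8.04 in WAT. Of 12 stromal and preadipocyte markers, 12 fell in BAT, 8 in CL, 11 in RS and 5 in RG. The part of these other cells in the results was not tested.

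On average the members stood highest in BAT and lowest in WAT. The mean log2 level of the 76 members was 6.31, 6.45 and 5.95 on the BAT arrays (replicates 1, 3 and 4) and 6.01, 6.05 and 6.27 on the CL arrays (replicates 1, 3 and 4). It was 5.86 and 5.80 on the RS arrays (replicates 3 and 4), 6.17, 5.90 and 6.21 on the RG arrays (replicates 2, 3 and 4), and 5.76, 5.47, 5.79 and 5.41 on the WAT arrays (replicates 1 to 4). Every array of BAT, CL, RS and RG therefore lay above every WAT array, with RS replicate 4 only just above WAT replicate 3. Both RS arrays lay below all arrays of the other 3 UCP1-positive groups. BAT replicate 4 was the lowest of its group for 63 of the 76 members, and WAT replicate 4 the lowest of its group for 46. Over the 8 brown and beige adipocyte markers, which include the gated Ucp1, array means were 8.35 to 9.0 in BAT, 8.16 to 8.58 in CL, 6.65 to 6.72 in RS, 6.60 to 7.55 in RG and 4.02 to 4.98 in WAT. Their part in the members' differences was not tested. In these bulk samples, fewer cells of a type and less RNA per cell cannot be told apart.

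**Figure D1:**
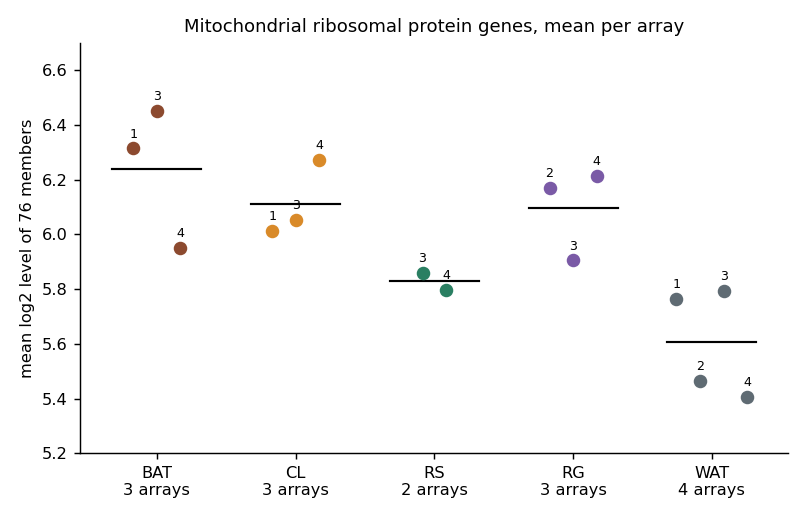
Mean log2 level of the 76 members on each array (points, labelled with the replicate number), by group, with the group mean as a line. The 3 BAT arrays lie between 5.95 and 6.45, the 2 RS arrays at 5.80 and 5.86, and the 4 WAT arrays between 5.41 and 5.79; the vertical axis does not start at 0.

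By group mean, 58 members (76.3%) were lowest in WAT and 12 (15.8%) were lowest in RS. Among the 5978 other probe sets with a mean level over 5, 21.5% were lowest in WAT and 28.2% in RS. BAT had the highest mean for 39 members (51.3%), RG for 22 (28.9%), CL for 10, RS for 3 and WAT for 2. Among the other probe sets over 5, BAT was highest for 14%, RG for 25.5%, CL for 11.1%, RS for 8.72% and WAT for 41%. The RG share of the members is thus near that of the other probe sets. The 76 members include 18 with a mean at or under 5, which the other probe sets leave out.

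The BAT comparison sets brown adipocytes from brown adipose tissue beside white ones from inguinal fat. Cell type, tissue and UCP1 gate differ together here and cannot be told apart. Of the 76 members, 48 rose and 1 fell in BAT against WAT at an adjusted p under 0.05 (limma, Benjamini-Hochberg over all probe sets). The background is that 27.6% of all probe sets rose and 16.4% fell, while among the 6036 probe sets with a mean over 5, which hold 58 of the members, 13% rose and 34.4% fell. The median log2 difference, BAT minus WAT, was 0.56 over the members and 0.18 over all probe sets. On every BAT array, 43 members stood above every WAT array, where 29.6% of all probe sets did so.

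Mrpl34, a large subunit protein with a bacterial relative, had the largest difference. Its level was 8.02, 8.14 and 7.37 on the BAT arrays, 7.01, 7.29 and 7.35 on the CL arrays, 6.42 and 6.68 on the RS arrays, 6.82, 6.38 and 6.85 on the RG arrays, and 6.41, 6.08, 6.60 and 6.15 on the WAT arrays. BAT and CL arrays stood clear of WAT, while RS and RG arrays overlapped with it. The BAT minus WAT difference was 1.53 ± 0.20 (log2, SE), a 2.89-fold increase, with an adjusted p of 9.8e-05 (limma). Against WAT, CL was also higher, by 0.91 ± 0.20 (adjusted p = 0.0065, limma), and RS (0.24 ± 0.23) and RG (0.37 ± 0.20) did not pass the test.

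Mrps2, a small subunit protein with a bacterial relative, was higher in all 4 groups. It measured 6.69, 6.62 and 5.74 in BAT, 5.97, 5.94 and 6.05 in CL, 5.73 and 5.73 in RS, 5.55, 5.19 and 5.96 in RG, and 4.96, 4.74, 5.04 and 4.55 in WAT. No array of the UCP1-positive groups overlapped with WAT. The differences from WAT were 1.53 ± 0.23 in BAT, 1.16 ± 0.23 in CL, 0.91 ± 0.26 in RS and 0.74 ± 0.23 in RG, with adjusted p-values of 0.00019, 0.00292, 0.0232 and 0.0465 in that order (limma).

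Mrps35, a small subunit protein found only in mitochondria, measured 6.88, 7.19 and 6.84 in BAT against 5.74, 5.46, 5.81 and 4.88 in WAT, a difference of 1.50 ± 0.20 (2.82-fold, adjusted p = 0.000103, limma). Mrpl30, a large subunit protein, measured 7.92, 7.47 and 6.43 in BAT against 5.77, 5.81, 6.16 and 5.85 in WAT. Its difference was 1.38 ± 0.28 (adjusted p = 0.0014, limma), and BAT replicate 4 lay closer to WAT than to the other 2 BAT arrays. Mrpl51, a large subunit protein found only in mitochondria, measured 5.93, 6.32 and 5.93 in BAT against 4.76, 4.57, 4.97 and 4.51 in WAT, a difference of 1.36 ± 0.23 (adjusted p = 0.000397, limma).

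The member that fell was Mrpl52, a mitochondria-specific protein of the large subunit. It measured 6.42, 6.61 and 5.59 in BAT against 6.64, 6.95, 7.01 and 6.92 in WAT. All BAT arrays lay below all WAT arrays, BAT replicate 3 by a narrow margin. The difference was -0.67 ± 0.22 (adjusted p = 0.0208, limma), and the call was not made after quantile normalization of the arrays. The 3 members with a mean over 5 and the smallest BAT minus WAT difference were Mrpl14, a large subunit protein on the face toward the small subunit, at -0.015 (95% interval -0.46 to 0.43), Mrpl57 at 0.028 (-0.43 to 0.48) and Mrps33 at 0.033 (-0.52 to 0.59). Their intervals reach 0.43 to 0.59 upward, so for each a BAT difference up to the upper end of its interval was not excluded.

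**Figure D2:**
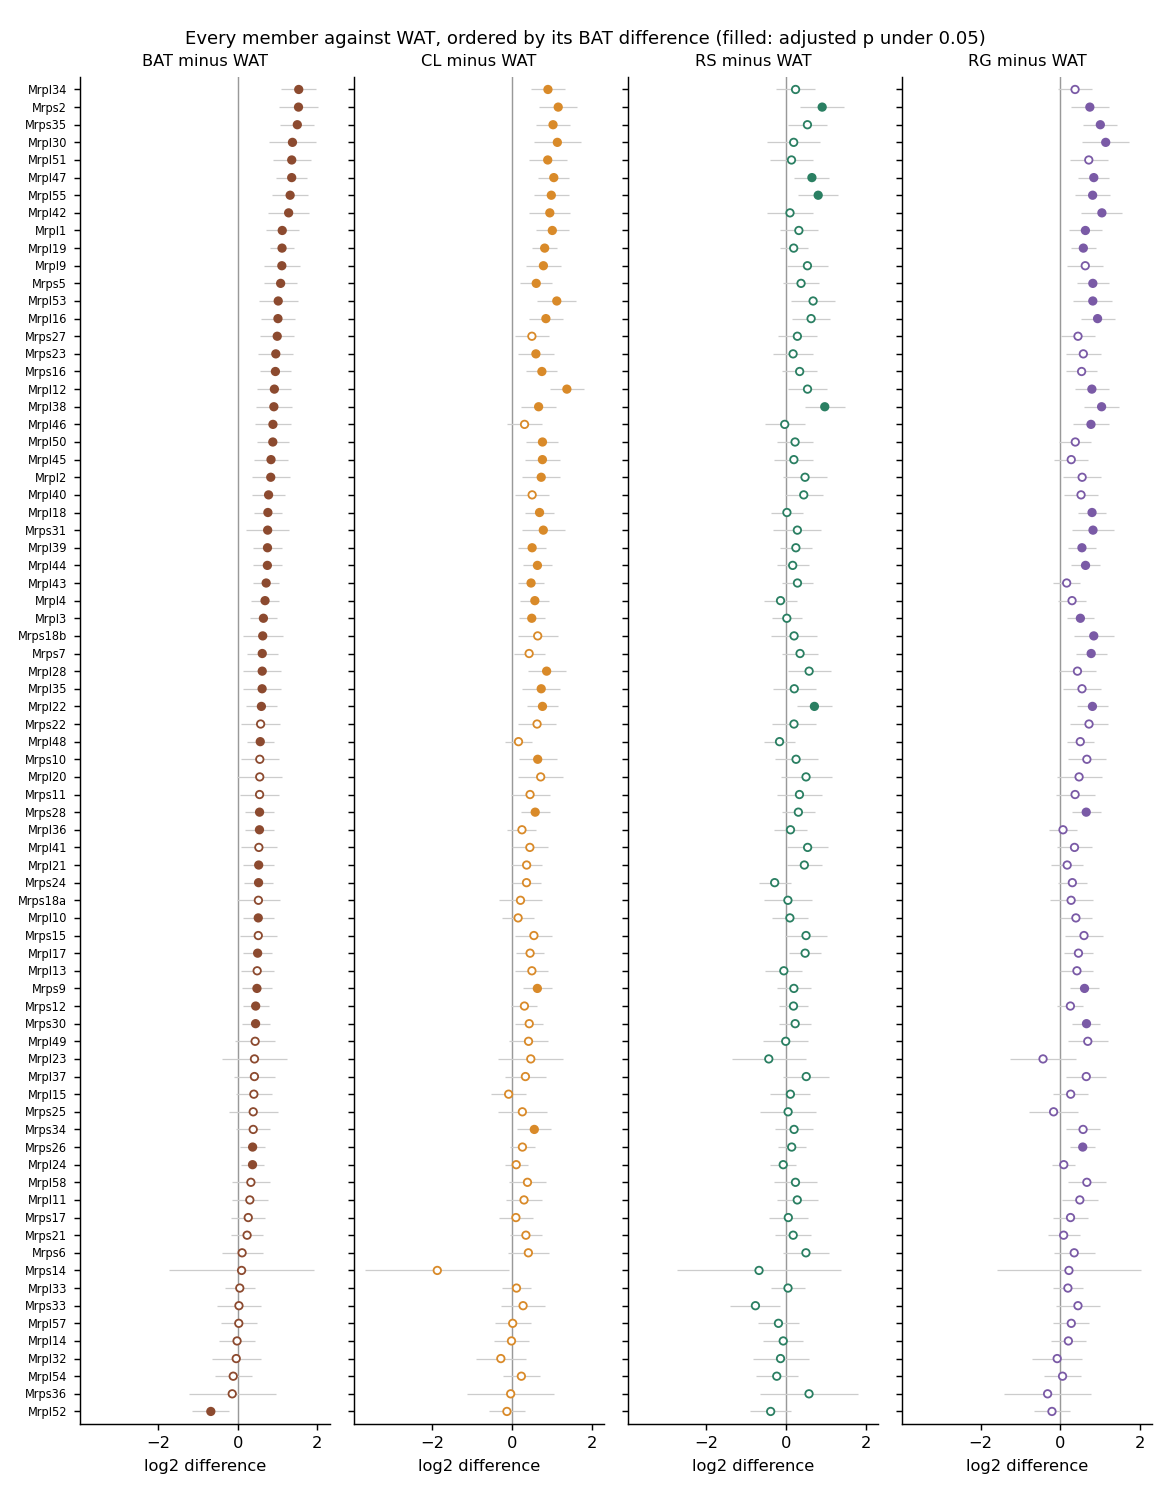
Log2 difference from WAT of every member in BAT, CL, RS and RG (panels left to right), ordered by the BAT difference. Points are differences between group means, bars their 95% intervals and filled points have an adjusted p under 0.05 (48 higher and 1 lower in BAT, 35 higher in CL, 5 in RS and 26 in RG); the widest bars belong to Mrps14 and Mrps36.

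The CL comparison asks how UCP1-positive inguinal cells after beta-adrenergic stimulation differ from white adipocytes. In CL, 35 members rose and none fell against WAT (limma; at an unadjusted p under 0.05, 47 were higher and 1 lower). Among all probe sets 15.2% rose and 9.97% fell, and among those with a mean over 5, 10.4% rose and 19.4% fell. The median log2 difference, CL minus WAT, was 0.51 over the members and 0.13 over all probe sets. The count fell to 15 without CL replicate 4 and to 23 without WAT replicate 2 or without WAT replicate 4, while the members' median stayed between 0.44 and 0.59 whichever single array was left out.

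Mrpl12, the stalk protein that helps recruit translation factors, led this comparison. It measured 6.82, 6.83 and 6.41 in BAT, 6.99, 7.11 and 7.34 in CL, 6.23 and 6.38 in RS, 6.57, 6.29 and 6.82 in RG, and 6.04, 5.71, 6.03 and 5.28 in WAT. The CL arrays were the highest of all 15. The CL minus WAT difference was 1.38 ± 0.20 (2.61-fold, adjusted p = 0.000537, limma), beside 0.92 ± 0.20 in BAT (adjusted p = 0.00241), 0.54 ± 0.23 in RS (adjusted p = 0.0976) and 0.80 ± 0.20 in RG (adjusted p = 0.0207). Between CL and RG directly, Mrpl12 differed by 0.59 ± 0.22, which did not pass the test (adjusted p = 0.148, limma).

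Next in CL came Mrps2 (above) and Mrpl30, which measured 6.72, 6.95 and 7.45 in CL, 1.14 ± 0.28 above WAT (adjusted p = 0.00892, limma). Mrpl53, a mitochondria-specific large subunit protein, measured 7.37, 7.46 and 7.65 in CL against 6.66, 6.16, 6.69 and 5.95 in WAT, a difference of 1.13 ± 0.23 (adjusted p = 0.00391, limma). Mrpl47, a large subunit protein near the exit of the peptide tunnel, measured 6.22, 5.97 and 6.09 in CL against 5.0, 4.89, 5.22 and 5.05 in WAT, a difference of 1.05 ± 0.18 (adjusted p = 0.00141, limma). For all 5, no CL array overlapped with WAT. In all, 47 members had every CL array above every WAT array, where 23.7% of all probe sets did.

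The RS comparison asks the same of cells after roscovitine. Only 5 members rose in RS against WAT and none fell (limma; at an unadjusted p under 0.05, 14 were higher and 1 lower). Among all probe sets 11.1% rose and 10.3% fell, and among those with a mean over 5, 3.48% rose and 21% fell, so the 6.58% of members that rose lies between the shares that rose. On both RS arrays, 21 members stood above every WAT array, where 28% of all probe sets did so. With a mean over 5, 16 of the 58 members did so, beside 612 of the 6036 probe sets. The median log2 difference, RS minus WAT, was 0.20 over the members and 0.14 over all probe sets. Leaving out single arrays, the members' median ran between 0.14 (without WAT replicate 4) and 0.28 (without WAT replicate 3). The count was 1 without WAT replicate 4, 1 without RS replicate 3 and 2 without RS replicate 4, and it was 17 after quantile normalization.

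These 5 were Mrpl38, Mrps2, Mrpl55, Mrpl22 and Mrpl47, and each also rose in BAT, CL and RG. Mrpl38, a mitochondria-specific protein of the central protuberance on top of the large subunit, measured 7.35, 7.26 and 7.16 in BAT, 6.83, 6.78 and 7.45 in CL, 7.49 and 7.15 in RS, 7.52, 7.26 and 7.38 in RG, and 6.66, 6.05, 6.68 and 6.0 in WAT. All arrays of the UCP1-positive groups stood clear of WAT, with the lowest in CL and the highest in RG. The RS minus WAT difference was 0.97 ± 0.24 (1.96-fold, adjusted p = 0.0119, limma), beside 0.91 in BAT, 0.67 in CL and 1.04 in RG. Mrpl55, a large subunit protein, measured 8.00 and 7.96 in RS against 7.36, 7.16, 7.38 and 6.79 in WAT, a difference of 0.81 ± 0.24 (adjusted p = 0.0263, limma). Mrpl22, which lines the peptide tunnel, measured 4.59 and 4.87 in RS against 4.18, 4.04, 4.05 and 3.8 in WAT, a difference of 0.71 ± 0.20 (adjusted p = 0.0239, limma). Mrpl47 measured 5.74 and 5.64 in RS and was 0.65 ± 0.21 above WAT (adjusted p = 0.0362, limma).

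Mrps33, a small subunit protein found only in mitochondria, ran the other way in RS without passing the test. It measured 5.86, 6.28 and 4.72 in BAT, 5.85, 5.67 and 6.09 in CL, 4.75 and 4.89 in RS, 6.06, 5.95 and 6.09 in RG, and 5.53, 5.49, 5.65 and 5.68 in WAT. Both RS arrays and BAT replicate 4 lay below all other arrays. The RS minus WAT difference was -0.77 ± 0.30 (adjusted p = 0.0728, limma).

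The RG comparison asks it of cells after PPARG activation. In RG, 26 members rose against WAT and none fell (limma; at an unadjusted p under 0.05, 46 were higher and 0 lower). Among all probe sets 5.19% rose and 6.24% fell, and among those with a mean over 5, 9.01% rose and 10.5% fell. The median log2 difference, RG minus WAT, was 0.53 over the members and 0.10 over all probe sets. The count depended on single arrays: it was 6 without RG replicate 2, 5 without RG replicate 4, 12 without WAT replicate 2 and 10 without WAT replicate 4, with the members' median between 0.46 and 0.59 whichever single array was left out.

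Mrpl30 led in RG, with 7.02, 6.86 and 7.24 on the RG arrays, 1.14 ± 0.28 above WAT (2.21-fold, adjusted p = 0.0165, limma). Mrpl42, a mitochondria-specific large subunit protein, measured 7.92, 8.10 and 7.47 in BAT, 7.08, 7.46 and 7.97 in CL, 6.51 and 6.79 in RS, 7.74, 7.44 and 7.61 in RG, and 6.78, 6.21, 7.0 and 6.21 in WAT. BAT, CL and RG arrays all stood above the WAT arrays, while both RS arrays fell inside the WAT range. The RG minus WAT difference was 1.05 ± 0.24 (adjusted p = 0.0136, limma) and the RS minus WAT difference 0.10 ± 0.27. Mrpl38, described above, was 1.04 ± 0.21 higher in RG than in WAT (adjusted p = 0.00708, limma), and Mrps35, at 6.38, 6.43 and 6.63 in RG, was 1.01 ± 0.20 higher (adjusted p = 0.00688, limma). Mrpl16, a large subunit protein with a bacterial relative, measured 7.02, 6.90 and 6.91 in RG against 6.25, 5.77, 6.27 and 5.73 in WAT, a difference of 0.94 ± 0.20 (adjusted p = 0.00988, limma). In all, 48 members had every RG array above every WAT array, where 19.1% of all probe sets did.

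**Figure D3:**
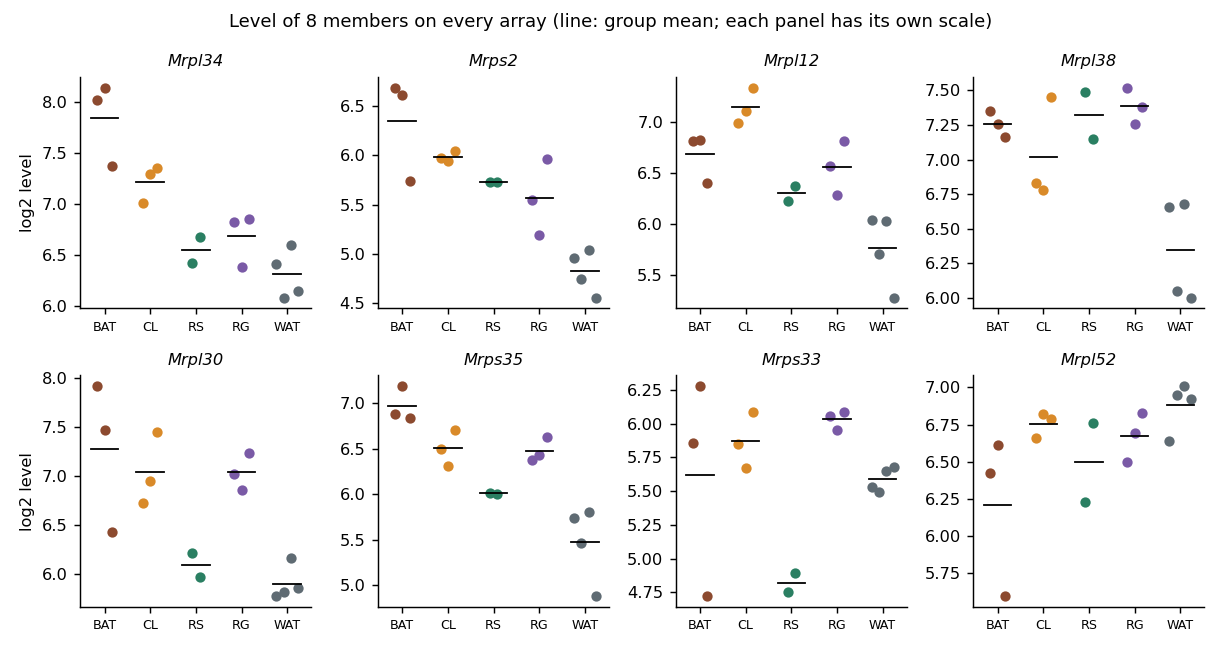
Log2 level on every array of 8 members, by group, with the group mean as a line; each panel has its own axis, which does not start at 0. Mrpl34, Mrps2, Mrpl12, Mrpl38, Mrpl30 and Mrps35 were higher than WAT in BAT, Mrpl52 was lower in BAT, and Mrps33 had its 2 RS arrays at 4.75 and 4.89.

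The 4 comparisons share the WAT arrays, so their calls are set side by side only as counts. Of the 76 members, 5 rose in all 4 groups, 16 in BAT, CL and RG, 12 in BAT and CL, 5 in BAT and RG, 10 in BAT and no other group, and 2 (Mrps10 and Mrps34) in CL and no other group. The other 26 rose in none. The shares of all probe sets with these patterns are not given here, so the overlaps cannot be read as a trait of the members. A call in a single group does not show that the groups differ. Of the 18 members with a mean level at or below 5, Mrps14 and Mrps36 were measured with the widest intervals, -1.71 to 1.91 and -1.23 to 0.96 in BAT minus WAT.

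Among the 58 members with a mean over 5, 94.8% had a positive difference in BAT, 96.6% in CL, 79.3% in RS and 96.6% in RG against WAT. Of the 5978 other probe sets over that level, 33.9%, 40.7%, 34% and 48.3% were positive in BAT, CL, RS and RG. Their median log2 differences were -0.25, -0.12, -0.21 and -0.02 in the same order, against 0.57, 0.53, 0.20 and 0.55 over the members. The RS members thus lay above the well-measured genes around them but closer to 0 than the members of the other groups.

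**Figure D4:**
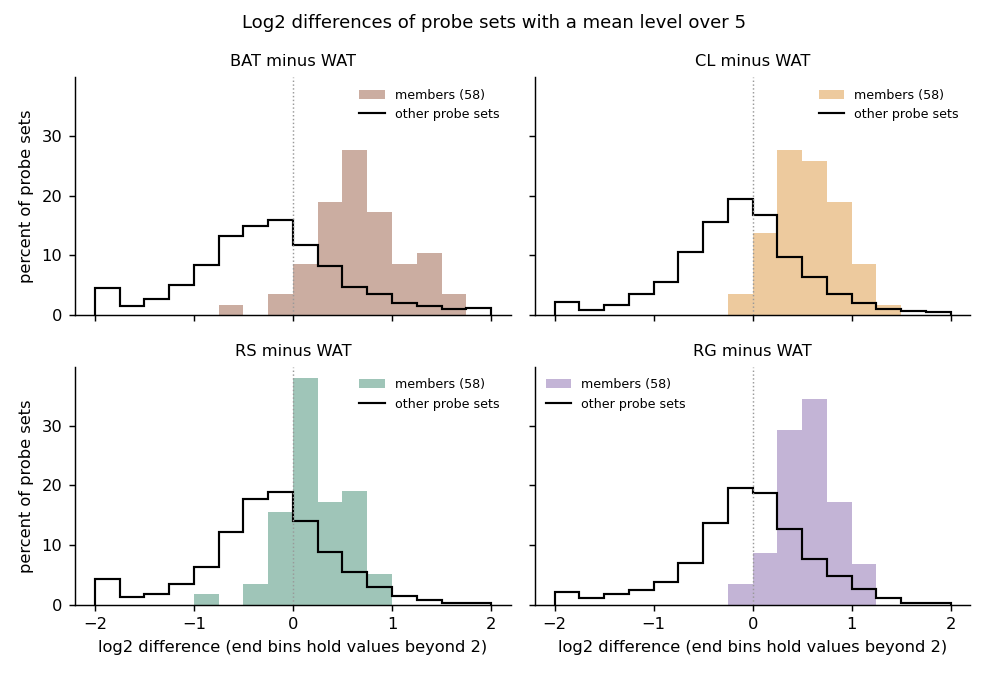
Percent of probe sets in each interval of log2 difference from WAT, for the 58 members with a mean over 5 (filled) and the 5978 other probe sets over that level (line), in BAT, CL, RS and RG. The members lie to the right of the other probe sets in each panel, with medians of 0.57, 0.53, 0.20 and 0.55 against -0.25, -0.12, -0.21 and -0.02.

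Direct comparisons between the UCP1-positive groups gave few calls. Against BAT, the tissue and the drug differ together for CL, RS and RG and cannot be told apart. In RS against BAT, 8 members fell and none rose (limma; at an unadjusted p under 0.05, 29 were lower and 0 higher), where 2.34% of all probe sets fell and 1.33% rose, and 3.06% fell and 2.57% rose among those with a mean over 5. Both RS arrays lay below every BAT array for 36 members, where 18% of all probe sets did so. The median log2 difference, RS minus BAT, was -0.39 over the members and -0.045 over all probe sets. Mrpl34 was lower in RS, with a difference of -1.29 ± 0.24 (adjusted p = 0.0118, limma), with RS at 6.42 and 6.68 and BAT at 8.02, 8.14 and 7.37. Mrpl19, a large subunit protein with a bacterial relative, measured 5.37 and 5.14 in RS against 6.25, 6.33 and 5.95 in BAT, a difference of -0.92 ± 0.17 (adjusted p = 0.0118, limma). Mrpl51 measured 5.30 and 4.38 in RS against 5.93, 6.32 and 5.93 in BAT, a difference of -1.22 ± 0.27 (adjusted p = 0.0244, limma), and its 2 RS arrays were far apart. No RS array overlapped with BAT for these 3. The count was 3 without BAT replicate 1, 2 without BAT replicate 3, 3 without RS replicate 3, 2 without RS replicate 4, and 0 when the RS and BAT arrays were fitted alone.

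In RG against BAT, 4 members fell and none rose (limma; at an unadjusted p under 0.05, 15 were lower and 0 higher), where 8.42% of all probe sets fell and 5.85% rose. Among probe sets with a mean over 5, 2.93% fell and 13.2% rose, beside 3 of the 58 members over that level that fell. They were Mrpl34 (-1.16 ± 0.22, adjusted p = 0.00472), Mrpl19 (-0.53 ± 0.16, adjusted p = 0.035), Mrpl43 (-0.55 ± 0.17, adjusted p = 0.0399) and Mrps2, named here because the count is small (-0.78 ± 0.24, adjusted p = 0.0436, all limma). Mrpl43, a mitochondria-specific large subunit protein, measured 4.82, 4.55 and 4.61 in RG against 5.29, 5.27 and 5.08 in BAT. The RG and BAT arrays of Mrps2 overlapped. The count was 8 without BAT replicate 4, 2 without RG replicate 4, and 1 without any single other array of these 2 groups.

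None of the 76 passed the test in CL against BAT, where 1.42% of all probe sets fell and 0.635% rose (0.249% and 0.977% with a mean over 5), and the members' median difference, CL minus BAT, was -0.11 (limma; at an unadjusted p under 0.05, 8 were lower and 2 higher). That median was -0.27 without BAT replicate 4, -0.18 without CL replicate 4, and between -0.071 and -0.025 without any single other array of these groups. In RS against CL the count was 0, with 17 lower and 0 higher at an unadjusted p under 0.05 and a median of -0.26 (limma; 0.797% of all probe sets fell and 0.476% rose, and 1.62% and 0.547% with a mean over 5), and the median was -0.17 without CL replicate 4. RS against RG also gave 0, with 16 lower and 0 higher at an unadjusted p under 0.05 and a median of -0.24 (limma; 0.337% fell and 0.345% rose, and 0.663% and 0.0166% with a mean over 5), and 1 without RS replicate 3. CL against RG gave 0, with 4 higher and 1 lower at an unadjusted p under 0.05 and a median of 0.01 (limma; 1.65% rose and 1.22% fell, and 0.878% and 2.09% with a mean over 5), and the median ran between -0.072 (without CL replicate 4) and 0.076 (without CL replicate 1). By sign, RS was lower than CL in 66 and lower than RG in 64 of the 76 members. Of the 6036 probe sets with a mean over 5, RS was lower than CL in 3752 and lower than RG in 4546. Of the 58 members over that level, the counts were 53 and 50. Both RS arrays lay below every CL array for 33 members and below every RG array for 31, where 17.1% and 16.7% of all probe sets did so. With a mean over 5, 26 and 27 of the 58 members did so, beside 1516 and 1774 of the 6036 probe sets. Over the 6036 probe sets with a mean over 5, the median differences were 0.11 in CL minus BAT and -0.093 in CL minus RG. They were -0.12 in RS minus CL and -0.21 in RS minus RG, beside -0.26 and -0.28 over the 58 members. At an unadjusted p under 0.05, 931 of the 6036 were lower and 319 higher in RS against CL (limma). In RS against RG, 970 were lower and 94 higher. No single member's difference passed the test with 2 RS arrays. The smallest p in RS against RG belonged to Mrps33 at -1.21 ± 0.31, with a 95% interval of -1.88 to -0.55 and an adjusted p of 0.0703 (limma), picked out here for that p.

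For the counts by role and origin, the shares of all probe sets that rose are those given above, 27.6% in BAT, 15.2% in CL, 11.1% in RS and 5.19% in RG, or 13%, 10.4%, 3.48% and 9.01% among those with a mean over 5. By role, the stalk that recruits translation factors is built on Mrpl10 and Mrpl11, with Mrpl12 as its mobile part. Mrpl10 rose in BAT (0.52 ± 0.18, adjusted p = 0.0334, limma), and its differences in CL, RS and RG were 0.16, 0.10 and 0.39. Mrpl11 did not pass the test in any group, with 0.31, 0.31, 0.28 and 0.49 in BAT, CL, RS and RG. At the tunnel exit, where nascent proteins leave toward the inner membrane, 5 of 6 listed members rose in BAT, 4 in CL, 2 in RS and 3 in RG. Mrpl45, which helps to anchor the ribosome at the membrane, rose in BAT (0.84 ± 0.20, adjusted p = 0.0046, limma) and in CL (0.77 ± 0.20, adjusted p = 0.0141), with 0.20 in RS and 0.28 in RG. Mrpl44, its neighbour there, rose in BAT (0.75 ± 0.17, adjusted p = 0.00285, limma), CL (0.64) and RG (0.64), with 0.17 in RS. Of 6 central protuberance members measured, 5 rose and Mrpl52 fell in BAT, and 2, 1 and 3 rose in CL, RS and RG.

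Mrpl58, a peptidyl-tRNA hydrolase that releases stalled chains and is built into the large subunit, did not pass the test in any group, with 0.33, 0.39, 0.24 and 0.67 in BAT, CL, RS and RG. Mrps12, the small subunit protein of the decoding site, measured 7.89, 7.90 and 7.76 in BAT against 7.57, 7.25, 7.63 and 7.14 in WAT and rose by 0.45 ± 0.15 (adjusted p = 0.0261, limma). Its differences in CL, RS and RG were 0.32, 0.19 and 0.26. Of the S18 family, which in bacteria is a single protein, Mrps18b rose in BAT (0.63 ± 0.24, adjusted p = 0.0425, limma) and RG (0.84 ± 0.24, adjusted p = 0.0335), while Mrps18a passed the test in no group, at 0.52, 0.22, 0.05 and 0.27 in BAT, CL, RS and RG.

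By origin and subunit the counts were as follows. Of 29 large subunit members with bacterial relatives, 21 rose in BAT, 16 in CL, 3 in RS and 10 in RG, with medians of 0.61, 0.70, 0.21 and 0.47. Of 20 mitochondria-specific large subunit members, 13 rose and 1 fell in BAT, and 9, 1 and 7 rose in CL, RS and RG, with medians of 0.73, 0.47, 0.21 and 0.59. For the small subunit, 8 of 15 with bacterial relatives rose in BAT, 6 in CL, 1 in RS and 5 in RG, and 5 of 9 mitochondria-specific members rose in BAT, 4 in CL, 0 in RS and 3 in RG. In RS, 10.3% of the large subunit members with bacterial relatives rose, close to the 11.1% of all probe sets. A difference between these classes was not tested. Of 5 further mitoribosomal proteins that lie outside the symbol rule, 4 rose in BAT, 3 in CL, 0 in RS and 2 in RG. Among them Ptcd3, a small subunit protein, rose by 1.13 ± 0.23 in BAT (adjusted p = 0.00156, limma).

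The members also varied together within groups. Over the 15 arrays, the median Pearson correlation of a member with the mean of the other members was 0.82, and 42 of 76 exceeded 0.8. For other probe sets with a mean over 5, the median correlation with the member mean was -0.13. After the group means were removed the medians were 0.72 for members and 0.12 for the others. These correlations are descriptions over arrays that share amplification, array and sort. The leading principal component held 57.1% of the members' variance, and 71.1% for those with a mean over 5. Mrps16, a small subunit protein with a bacterial relative, followed the others most closely (0.97), and Mrpl52 and Mrps14 least (-0.25 each).

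Because the members moved together, their promoters were read from RefSeq (GRCm38.p6) in windows from 250 bases before to 50 bases after each start. Windows were found for 67 of the 76 members, 73 in all, and were searched on both strands for 6 letter strings, none of which contains another. CCGGAAG, a form of the site of ETS family factors such as GABPA, a regulator long known for nuclear genes of mitochondria, was present in 32.9% of the member windows. It was present in 8.86% of all 32851 windows and in 17.9% of windows of other genes with a mean over 5. Among the members, it was in 32.7% of windows of those that rose in BAT and in 33.3% of the others. For AGATGGC, the site of YY1, the shares were 16.4% of member windows, 6.4% of all windows and 7.64% of other genes over 5. For GCATGCG, the core of the NRF1 site, they were 11%, 3.58% and 6.43%. For AAGGTCA, the half-site of the oestrogen-related receptors that act with PGC-1 coactivators in brown fat, they were 5.48%, 4.72% and 2.97%. GGGCGGG, bound by SP factors, was in 43.8% of member windows, 25.6% of all and 49.4% of other genes over 5, and TATAAA, the TATA box, in 6.85%, 13.6% and 7.51%. A match describes letters in a window and not a bound site.

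The following stretches hold at most 120 bases, end at the base before the annotated start and stop short of any neighbouring gene. They show where CCGGAAG or its reverse complement (capitals) lies. Members whose stretch was left with few bases by a neighbouring gene were not eligible, whatever their difference. Mrpl34 (chr8:71464806-71464925, plus strand), Mrpl51 (chr6:125192101-125192199, plus strand), Mrps27 (chr13:99344679-99344785, plus strand), Mrpl3 (chr9:105053148-105053267, plus strand) and Mrpl22 (chr11:58171544-58171663, plus strand) have the largest BAT differences among members that rose, have 1 annotated start and have a match in such a stretch. Mrpl58 (chr11:115403632-115403751, plus strand), Mrps18a (chr17:46110884-46111003, plus strand) and Mrps22 (chr9:98601680-98601799, minus strand) are shown because they have a match too and did not pass the test in BAT. Mrpl52, which fell in BAT, also has a match. The match begins between 11 bases (Mrps22) and 90 bases (Mrpl51) before the start.
Mrpl34: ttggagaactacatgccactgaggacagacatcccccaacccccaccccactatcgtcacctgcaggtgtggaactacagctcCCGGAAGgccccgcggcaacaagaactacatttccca
Mrpl51: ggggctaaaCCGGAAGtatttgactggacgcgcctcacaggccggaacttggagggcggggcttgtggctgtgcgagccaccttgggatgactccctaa
Mrps27: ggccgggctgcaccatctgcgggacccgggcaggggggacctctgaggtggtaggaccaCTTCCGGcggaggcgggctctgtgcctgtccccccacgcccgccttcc
Mrpl3: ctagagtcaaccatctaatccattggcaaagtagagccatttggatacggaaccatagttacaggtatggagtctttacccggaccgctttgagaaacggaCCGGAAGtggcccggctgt
Mrpl22: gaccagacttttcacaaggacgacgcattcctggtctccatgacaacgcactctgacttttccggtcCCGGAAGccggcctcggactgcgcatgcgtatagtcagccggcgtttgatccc
Mrpl58: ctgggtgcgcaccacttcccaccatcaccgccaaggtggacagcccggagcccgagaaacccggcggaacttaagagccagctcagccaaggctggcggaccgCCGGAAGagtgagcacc
Mrps18a: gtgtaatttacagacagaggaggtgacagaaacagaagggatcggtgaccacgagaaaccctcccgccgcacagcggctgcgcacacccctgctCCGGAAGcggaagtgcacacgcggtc
Mrps22: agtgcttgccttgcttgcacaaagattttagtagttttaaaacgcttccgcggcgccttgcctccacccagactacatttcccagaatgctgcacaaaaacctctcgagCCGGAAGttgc
Read beside the values above, the 5 that rose in BAT (differences of 1.53, 1.36, 0.99, 0.65 and 0.60) and the 3 that did not pass (0.33, 0.52 and 0.58) carry the same 7 letters.

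Several members share a start region with a gene on the opposite strand: of the 67 with a window, 24 have such a start within 1000 bases in RefSeq. The share over all genes is not given here, so this count cannot be read as a trait of the members. Mrpl46, of the central protuberance, and Mrps11, of the small subunit, start 42 bases apart and point away from each other. Mrpl46 measured 6.62, 6.83 and 6.48 in BAT against 6.0, 5.43, 6.22 and 5.38 in WAT, and Mrps11 measured 6.94, 7.05 and 5.91 in BAT against 6.08, 6.07, 6.19 and 5.99 in WAT. Mrpl46 rose (0.89 ± 0.21, adjusted p = 0.0038, limma), while the Mrps11 arrays overlapped (0.55 ± 0.23, adjusted p = 0.0638, limma). Mrpl43 starts 116 bases from Twnk, the helicase of mitochondrial DNA. Against WAT, Mrpl43 differed by 0.72, 0.48, 0.29 and 0.16 in BAT, CL, RS and RG, and Twnk by 0.03, 0.17, -0.79 and 0.06. Twnk measured 3.36 and 3.19 in RS against 4.2, 3.82, 4.33 and 3.90 in WAT and fell there (adjusted p = 0.00803, limma). Mrpl47 starts 308 bases from Ndufb5, a subunit of respiratory complex I, and both rose in BAT (1.36 and 1.29), CL (1.05 and 0.91) and RG (0.84 and 0.81). These pairs were chosen for their shared starts with the values known, and differences within a pair were not tested.

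The genes that build and use the mitoribosome were counted from lists of known genes, to be read against the 27.6%, 15.2%, 11.1% and 5.19% of all probe sets that rose in BAT, CL, RS and RG (13%, 10.4%, 3.48% and 9.01% with a mean over 5). Of 12 mitochondrial translation factors, 8 rose in BAT, 7 in CL, 2 in RS and 5 in RG, and none fell, with medians of 0.84, 0.72, 0.43 and 0.55. Without both WAT replicate 4 and RS replicate 3, the RS median was 0.18. Taco1, which activates translation of a cytochrome oxidase subunit, rose by 1.06 ± 0.17 in BAT (adjusted p = 0.000346, limma). The elongation factor Tufm measured 5.47, 5.41 and 5.82 in BAT, 5.28 and 5.52 in RS, 4.75, 4.59 and 4.78 in RG, and 4.48, 4.64, 4.91 and 4.31 in WAT. It rose in BAT (0.98 ± 0.17, adjusted p = 0.000611, limma) and RS (0.82 ± 0.20, adjusted p = 0.0112, limma), and its RG difference was 0.12 ± 0.17. The CL values of Tufm are not given here, so its rise cannot be read as setting RS apart from CL. Gfm2, a factor for ribosome recycling, rose in all 4 groups, by 0.95, 0.89, 0.77 and 1.14 in BAT, CL, RS and RG.

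Of 17 mitochondrial aminoacyl-tRNA synthetases, which charge tRNAs for the mitoribosome, 5 rose in BAT, 8 in CL, 2 in RS and 2 in RG, and none fell. The 29.4% that rose in BAT and the 11.8% in RS are close to the shares of all probe sets. Aars2 (1.07 ± 0.18), Fars2 (0.98 ± 0.19) and Vars2 (0.64 ± 0.19) had the smallest p in BAT, with adjusted p-values of 0.000522, 0.00122 and 0.0132 (limma). Of 23 assembly factors, which modify the ribosomal RNA or guide maturation, 8 rose in BAT, 2 in CL, 0 in RS (limma; at an unadjusted p under 0.05, 5 were higher and 1 lower) and 1 in RG, and none fell. In CL, RS and RG these shares are below those of all probe sets. Those that rose in BAT included the RNA methyltransferases Mrm1 (0.86 ± 0.19, adjusted p = 0.00264) and Mrm3 (0.80 ± 0.18, adjusted p = 0.00277) and the factor Mettl17 (0.60 ± 0.17, adjusted p = 0.0106, all BAT minus WAT, limma). Of 12 genes for mitochondrial DNA and its transcription, 5 rose and 2 fell in BAT, 4 rose in CL, 1 fell in RS and 2 rose in RG. Lrpprc, which stabilises mitochondrial messenger RNA, rose by 1.31 ± 0.19 in BAT (adjusted p = 0.000135, limma), the transcription elongation factor Tefm rose by 1.10 ± 0.20 (adjusted p = 0.000618, limma), and Ssbp1, the single-stranded DNA binding protein, differed by -1.28 ± 0.20 (adjusted p = 0.000228, limma). Transcripts of mitochondrial DNA were not analysed here.

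The nuclear-encoded respiratory chain partners had larger medians than the members, a difference that was not tested. Of 61 measured, 55 rose in BAT, 52 in CL, 11 in RS and 29 in RG, and none fell, with medians of 1.07, 0.91, 0.53 and 0.66. Ndufab1 (2.04 ± 0.21, adjusted p = 1.72e-05), Ndufa10 (1.60 ± 0.21, adjusted p = 8.14e-05) and Uqcrc1 (1.41 ± 0.19, adjusted p = 8.92e-05), subunits of complexes I and III, had the smallest p in BAT (limma). Without both WAT replicate 4 and RS replicate 3, the counts were 51, 43, 0 and 13 in BAT, CL, RS and RG. With those arrays left out, the translation factors numbered 8, 6, 1 and 1 in the same order, the synthetases 3, 7, 0 and 1, and the assembly factors 5 higher and 1 lower in BAT and 1, 0 and 0 in CL, RS and RG.

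Proteins of the cytosolic ribosome had medians near 0, but their level was low. The mean of this list was 4.45 to 4.75 per array, under 5, beside 7.20 to 8.83 for the respiratory chain partners. Whether the low level holds the differences near 0 was not tested. Among all probe sets 16.4%, 9.97%, 10.3% and 6.24% fell in BAT, CL, RS and RG. Of 57 measured, 8 rose and 13 fell in BAT, 10 rose and 3 fell in CL, 9 rose and 7 fell in RS, and 2 rose and 2 fell in RG, with medians of -0.07, -0.05, -0.005 and 0.002. The smallest p in BAT belonged to Rps14 (2.05 ± 0.17, adjusted p = 3.06e-06), Rps3a1 (2.00 ± 0.26, adjusted p = 7.87e-05) and Rps2 (1.41 ± 0.23, adjusted p = 0.000324, limma). Genes of this family have many near-identical copies, so a probe set may not tell a gene from its copies. Excluding WAT replicate 4 and RS replicate 3, 7 rose and 8 fell in BAT, and 5 rose and 3 fell in RS, and the medians were 0.003, 0.03, 0.087 and 0.043 in BAT, CL, RS and RG.

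**Figure D5:**
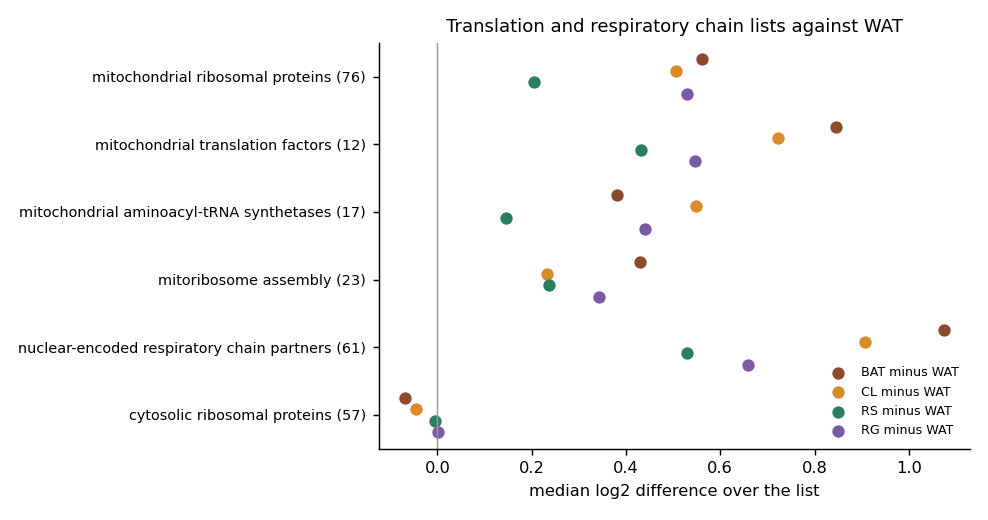
Median log2 difference from WAT over each list (number of genes measured in brackets) in BAT, CL, RS and RG. The respiratory chain partners have medians from 0.53 to 1.07, the 76 mitochondrial ribosomal proteins from 0.20 to 0.56, and the cytosolic ribosomal proteins lie near 0 in each group. The cytosolic list had low mean levels of 4.45 to 4.75 per array.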

How the data were processed

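Each array has 1 log2 level for every probe set, used as the authors deposited it. Per the submitters' processing notes, the tools were Affymetrix Expression Console, affy 1.36.1 and RMA, whose order and settings are not stated. The genome build and probe-set definition are not given in the sources used here. Symbols came from RefSeq through the Entrez number in each probe-set identifier. The members and gene lists were chosen with earlier results of these data known.

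With R 4.3.3 and limma 3.58.1 (lmFit, contrasts.fit, eBayes), the 25206 probe sets were fitted in 1 model of 15 arrays with a mean per group, with 10 residual degrees of freedom. Each of the 10 comparisons was two-sided, and its p-values were adjusted over the whole table by Benjamini-Hochberg, at a threshold of 0.05. RS, with 2 arrays, was assumed to vary as the other groups do. The test was run on simulated data with known changes beforehand. Values after ± are standard errors. Median levels differed little between arrays (3.33 to 3.47), but levels spread wider in WAT (SD 1.91 to 2.00) than on the other arrays (SD 1.65 to 1.85). The number of arrays limits the precision.

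Named members were those with the largest change past the threshold with no overlap of arrays (up to 5 higher and 3 lower against WAT), the 3 smallest p in other comparisons, the 3 smallest BAT differences among members with a mean over 5, and members with a stated role. From other lists, up to 3 genes with the smallest p in BAT were named. Alternatives were another centring, quantile normalization, the replicate number as a block, leaving out arrays, a filter on low values, and fits of the compared groups alone.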

Additional observations from a re-analysis of the deposited data

How the results depend on the processing

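No member called in any comparison changed sign under any alternative run, but the counts of calls moved. Against WAT in BAT, CL, RS and RG, the counts were 35, 28, 4 and 22 after centring each array on its median and 62, 47, 17 and 37 after quantile normalization, with the members' medians at 0.46, 0.45, 0.13 and 0.52 and at 0.87, 0.68, 0.50 and 0.60. Quantile normalization put the median of all probe sets in BAT minus WAT at 0.03, against 0.18 as reported. In RG against BAT the count was 1 after centring and 9 after quantile normalization. Arrays with the same number in their titles were not alike: 24 pairs of them correlated between -0.88 and -0.05 after group means were removed. Why all 24 were negative was not tested, and whether the numbers carry another structure is not settled. With the replicate number as a block the counts were 30, 12, 0 and 6 in BAT, CL, RS and RG against WAT, and 0 in RS and RG against BAT. Without both WAT replicate 4 and RS replicate 3, they were 37, 23, 0 and 10 against WAT, 4 in RS against BAT and 1 in RS against RG. Fits of the compared groups alone gave 0 in RS against BAT and 1 in RG against BAT. The causes were not tested.

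Leaving out each array in turn gave 34 to 55 calls in BAT, 15 to 36 in CL, 1 to 6 in RS and 5 to 29 in RG against WAT, 2 to 11 in RS against BAT, 1 to 8 in RG against BAT, 0 to 1 in RS against RG, and 0 in the other 3 comparisons. Among the named members, the values that turned were not called ones. In BAT minus WAT these were Mrpl57 (-0.073) and Mrps33 (-0.068) after centring, Mrpl14 (0.33) after quantile normalization, and Mrpl57 (-0.0033) without WAT replicate 4 and RS replicate 3. In RS minus WAT these were Mrps18a (-0.025) after centring, and Mrps18b (-0.14), Mrpl45 (-0.027) and Mrpl44 (-0.07) without those 2 arrays. Leaving out single arrays, the differences ranged from -0.18 to 0.17 for Mrpl14, from -0.22 to 0.24 for Mrpl57 and from -0.30 to 0.48 for Mrps33 in BAT minus WAT, and from -0.24 to 0.34 for Mrps18a and from -0.12 to 0.52 for Mrps18b in RS minus WAT.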
